A study of Mus musculus with 12 samples.

Results

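This account follows 10 genes that encode RNA-binding proteins of neurons: Rbfox1, Rbfox2 and Rbfox3, Elavl2, Elavl3 and Elavl4, Nova1 and Nova2, and Celf4 and Celf5. They were taken by symbol from the deposited table of normalized counts, which has 15759 entries, and all 10 passed the minimum mean of 10 normalized counts that left 15369 genes for testing. The study sequenced poly-A RNA from the cortex and the cerebellum of 12-week-old mice on the C57BL/6J background. SCA1 KI mice carry 1 Atxn1 allele with 154 CAG repeats and 1 with 2, both under the gene's own regulators in every tissue, and model spinocerebellar ataxia type 1, while WT mice were their littermates. Each of the 4 groups (WT cortex, SCA1 KI cortex, WT cerebellum, SCA1 KI cerebellum) held 3 libraries, which are named here by the letters A to F in the cortex and the numbers 1 to 6 in the cerebellum. The labels describe male mice and the study's methods describe males and females combined. The cerebellar libraries came from an earlier data set of the same laboratory, so that brain region and data set cannot be told apart in any comparison between regions. The labels do not say which libraries shared a litter or a day, and p-values measure the spread between these libraries.

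These proteins bind short motifs in pre-mRNA and mRNA and set which exons are kept, how mRNAs are polyadenylated and how stable they are. Rbfox proteins recognise UGCAUG, Nova proteins clusters of YCAY, Elavl (Hu) proteins U-rich and AU-rich stretches, and Celf proteins UGU-rich stretches. Each family has close paralogues that share RNA-binding domains and are expressed in different sets of neurons, and Rbfox3 is the antigen known as NeuN. The counts are totals over all transcripts of a gene. They measure neither exon choice nor protein.

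In the cortex, 3 of the 10 genes, Rbfox1, Rbfox3 and Nova1, had lower counts in SCA1 KI mice and none had higher. In the cerebellum none of the 10 was called by limma in either direction. In that fit 2 (Elavl2 and Celf4) had an unadjusted p under 0.05, and the share of all tested genes with such a p is not given here. DESeq2 called 1 (Elavl2, lower), against 1150 of all tested genes, and edgeR and voom called 0. A gene was called when limma on log2(normalized count + 1) gave a Benjamini-Hochberg adjusted p under 0.05 over all tested genes and an absolute log2 fold change (LFC) over 0.25. By this rule 10.8% of all tested genes were lower and 4.82% higher in the SCA1 KI cortex, against 4.44% lower and 0.917% higher in the SCA1 KI cerebellum. The median LFC of the 10 genes was -0.20 in the cortex, where that of all tested genes was -0.0028, and 0.0049 in the cerebellum, where that of all tested genes was -0.0049. Because the tissue was taken in bulk, fewer cells of a type and less RNA per cell cannot be told apart from these counts. The paper stained the motor cortex for NeuN, the protein of Rbfox3. It reports no significant loss of neurons in SCA1 KI mice of the sequenced age. From the same staining it reports a trend to a thinner cortex at that age. It also reports smaller neuronal nuclei, significantly so at a later age. The paper does not exclude that subpopulations of neurons were affected differently. Cell numbers in the whole cortex, which was sequenced, were not tested.

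**Figure D1:**
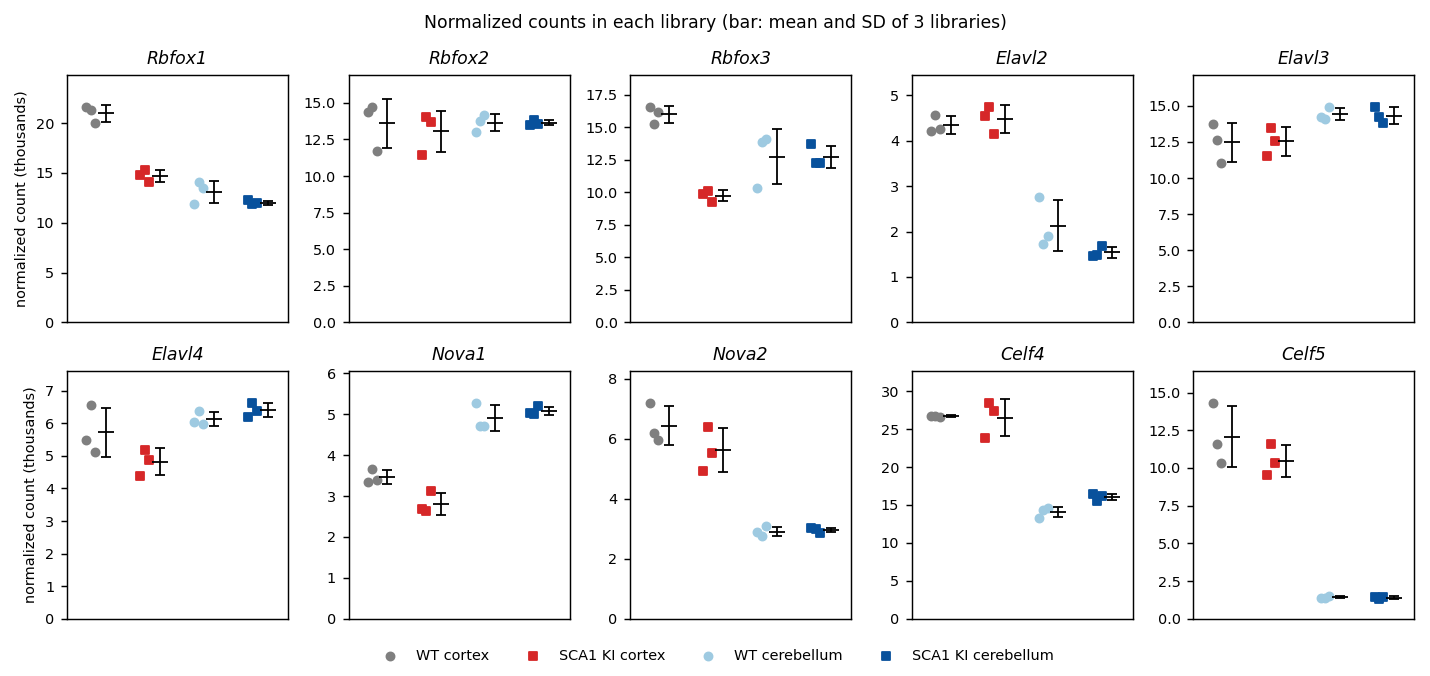
Normalized counts (axis in units of 1000, from 0) of the 10 genes in each of the 12 libraries; grey circles WT cortex, red squares SCA1 KI cortex, light blue circles WT cerebellum, dark blue squares SCA1 KI cerebellum, black bars mean and SD of 3 libraries. The red squares of Rbfox1, Rbfox3 and Nova1 all lie below the grey circles, and Celf5 is near the bottom of its axis in the 6 cerebellar libraries.

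The depth was 29520855 to 51311309 reads on genes per library, and a member had between 1117 and 30402 reads in a library (a counting error of at most 2.99% of the count). Atxn1, the gene that carries the expanded allele, had 7370 ± 815 normalized counts in WT cortex and 6040 ± 1337 in SCA1 KI cortex (SD, n = 3; adjusted p = 0.132). In the cerebellum it had 3679 ± 55 in WT and 3889 ± 221 in SCA1 KI mice (SD, n = 3; adjusted p = 0.837). Both alleles are counted together, so this does not check the genotype.

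Rbfox1 is a splicing regulator of neurons, heart and muscle. Its normalized counts were 21622, 21320 and 20011 in the WT cortex libraries B, C and D, and 14738, 15321 and 14077 in the SCA1 KI cortex libraries A, E and F. The highest SCA1 KI library lay under the lowest WT library, at 70.1% of the WT level on average (95% confidence interval 63.6 to 77.3; LFC -0.51, SE 0.065, adjusted p = 2.08e-04). In the cerebellum Rbfox1 was at 11899, 14047 and 13432 in the WT libraries 2, 4 and 6 and at 12249, 11864 and 11928 in the SCA1 KI libraries 1, 3 and 5. These ranges overlapped, with an LFC of -0.12 (SE 0.065, adjusted p = 0.365). The LFC in the cortex was lower than that in the cerebellum by 0.39 (interaction -0.39, SE 0.092, adjusted p = 0.0211). This interaction was lost when SCA1 KI cerebellum library 1 (adjusted p = 0.0645), WT cortex library C (0.0533) or SCA1 KI cortex library F (0.0504) was left out, with a range of 0.0133 to 0.0645 over the 12 fits that left out a library, while the cortical call was kept in each of those fits.

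Rbfox3, the neuronal nuclear antigen used to mark most mature neurons, had the largest change among the 10 genes in the cortex. It was at 16556, 15240 and 16136 normalized counts in WT cortex and at 9825, 10097 and 9271 in SCA1 KI cortex. The 2 groups did not overlap, with SCA1 KI mice at 60.9% of the WT level (LFC -0.72, SE 0.10, adjusted p = 4.31e-04). In the cerebellum it was at 10288, 13838 and 14092 in WT and at 13689, 12259 and 12209 in SCA1 KI mice. WT library 2 was the lowest of the 6 cerebellar libraries, the ranges overlapped, and the LFC was 0.01 (SE 0.10, adjusted p = 0.980). In that library the summed markers of cerebellar granule cells were at 141401 normalized counts, against 189524 to 199439 in the other 5, and those of oligodendrocytes at 266831, against 152414 to 198047. The part of cell make-up in its Rbfox3 value was not tested. The interaction for Rbfox3 was -0.73 (SE 0.14, adjusted p = 0.0082). Among all tested genes 8.15% had an interaction with an adjusted p under 0.05, and among the 10 genes 2 had one, Rbfox1 and Rbfox3.

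Rbfox2, the most widely expressed gene of the family, did not pass the test in either region. It was at 14366, 14730 and 11694 normalized counts in WT cortex and at 11459, 14031 and 13713 in SCA1 KI cortex. The ranges overlapped, and the LFC was -0.06 with a 95% confidence interval of -0.25 to 0.14 (adjusted p = 0.728). In the cerebellum it was at 13046 to 14143 in WT and 13520 to 13851 in SCA1 KI mice. The SCA1 KI range lay inside the WT range (LFC -0.00019, 95% confidence interval -0.20 to 0.20).

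To set paralogues side by side, normalized counts were divided by the gene's exonic length, 4.40 kb for Rbfox1, 8.14 kb for Rbfox2 and 5.82 kb for Rbfox3. The summed level of the 3 Rbfox genes was 9186 ± 391 normalized counts per kb in WT cortex and 6622 ± 277 in SCA1 KI cortex (SD, n = 3). It was 6850 ± 672 in WT cerebellum and 6593 ± 178 in SCA1 KI cerebellum. The SCA1 KI cortex, at 6446 to 6941, lay inside the range of the cerebellum, 6075 to 7263. Rbfox2 made up 16.4 to 19.5% of the sum in WT cortex and 21.8 to 26.0% in SCA1 KI cortex, without overlap, and 23.3 to 26.4% in the 6 cerebellar libraries. The share of Rbfox3 was 28.2 to 31.7% in WT and 24.6 to 26.2% in SCA1 KI cortex, while that of Rbfox1 stayed between 49.4 and 52.2% in all 6 cortical libraries. With the length of the longest transcript in place of the exonic length, the share of Rbfox2 in the cortex was lower, at 14.1% in WT and 19.3% in SCA1 KI mice on average, and the ranges again did not overlap.

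**Figure D2:**
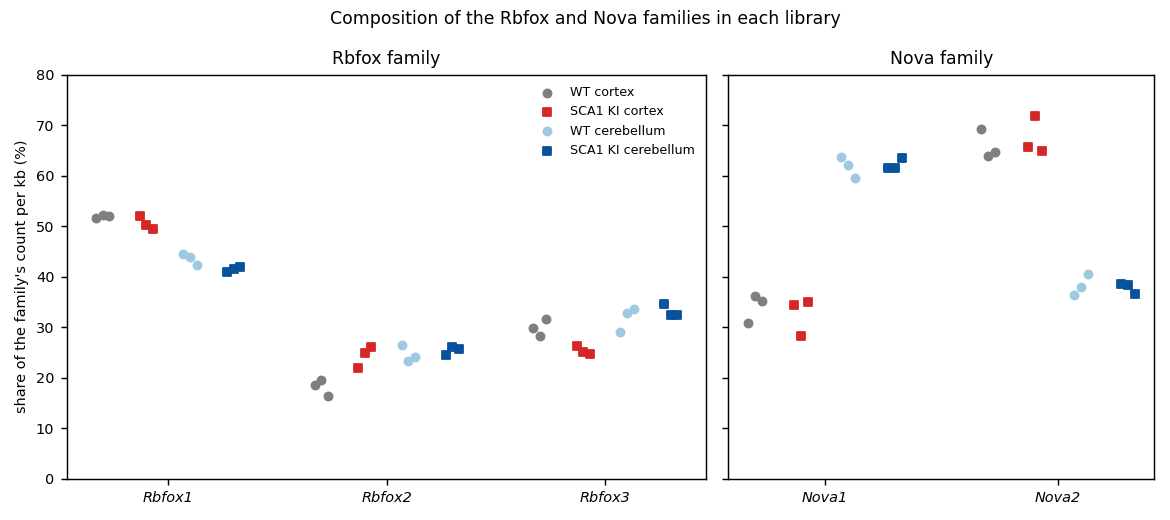
Share of each paralogue in its family's summed normalized count per kb (%), 1 point a library, Rbfox family on the left and Nova family on the right, with colours for the 4 groups. Rbfox2 is at 16.4 to 19.5% in WT cortex and 21.8 to 26.0% in SCA1 KI cortex, and the shares of Nova1 and Nova2 change places between the cortex and the cerebellum.

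The Rbfox paralogues encode RNA recognition motifs that are nearly the same, which raises the question of whether reads of 75 bases can be told apart. The stretch of 120 coding bases below encodes the same 40 residues in all 3 genes and spans 2 coding exons in each, and it is shown because it starts the longest run of residues, 49, that the 3 coding sequences share. Positions are of GRCm38 with transcripts of GENCODE vM21: chr16:7277100-7285528 on the plus strand for Rbfox1, chr15:77113608-77116989 on the minus strand for Rbfox2 and chr11:118503723-118505691 on the minus strand for Rbfox3, introns included. Capitals mark bases that differ from Rbfox1 and, in Rbfox1, bases that differ in either of the others.
Rbfox1: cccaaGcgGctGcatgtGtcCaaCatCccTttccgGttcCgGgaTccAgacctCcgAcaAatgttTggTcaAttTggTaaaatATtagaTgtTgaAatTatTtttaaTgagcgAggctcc
Rbfox2: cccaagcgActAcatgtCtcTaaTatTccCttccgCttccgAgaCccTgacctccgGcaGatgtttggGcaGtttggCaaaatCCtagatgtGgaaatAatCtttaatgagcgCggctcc
Rbfox3: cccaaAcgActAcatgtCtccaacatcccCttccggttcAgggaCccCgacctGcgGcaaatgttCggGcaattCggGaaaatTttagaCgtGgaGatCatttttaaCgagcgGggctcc
Rbfox2 differed from Rbfox1 at 22 of the 120 bases and Rbfox3 at 21. The longest run shared by the coding sequences of any pair of the 3 genes was 29 bases, and no transcripts of the 3 shared a window of 75 bases. A read of 75 bases from these transcripts thus has no exact second copy within the family.

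Nova1, which regulates exons of synaptic and inhibitory receptor genes, was lower in the SCA1 KI cortex. Its normalized counts were 3336, 3668 and 3388 in WT cortex and 2689, 2623 and 3118 in SCA1 KI cortex. The SCA1 KI libraries all lay below the WT libraries, at 81.0% of the WT level (LFC -0.30, SE 0.073, adjusted p = 0.0121). The call was lost without WT cortex library C (LFC -0.26, adjusted p = 0.0552) and when each region was fitted on its own (adjusted p = 0.0594, in a range of 0.0019 to 0.0594 over 10 settings). In the cerebellum Nova1 was at 5266, 4716 and 4710 in WT and at 5023, 5006 and 5202 in SCA1 KI mice, ranges that overlapped (LFC 0.05, SE 0.073, adjusted p = 0.792). The interaction was -0.36 (SE 0.10, adjusted p = 0.0519), and its adjusted p ranged from 0.0213 with DESeq2 to 0.0734 over 9 settings.

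Nova2, the paralogue that is prominent in the neocortex, had counts of 7181, 6183 and 5953 in WT cortex and 4919, 6383 and 5533 in SCA1 KI cortex. SCA1 KI library E lay within the WT range, and the LFC of -0.20 did not pass the test (95% confidence interval -0.40 to -0.0016, adjusted p = 0.161). It passed without SCA1 KI library E (LFC -0.30, adjusted p = 0.0368), and over the 12 fits that left out a library it reached -0.11 (adjusted p = 0.451). In the cerebellum it was at 2763 to 3077 in WT and 2873 to 3016 in SCA1 KI mice (LFC 0.03, adjusted p = 0.926). The opposite-strand gene Gm26821 covers 31.7% of the exonic bases of Nova2, and whether the counting used strand is not given in the sources used here, so that the Nova2 values may hold reads of both.

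In the Elavl family, which stabilises mRNAs with AU-rich elements as well as acting on splicing, no gene passed the test in the cortex. Elavl4 was at 5484, 6563 and 5123 normalized counts in WT cortex and at 4375, 5190 and 4885 in SCA1 KI cortex. SCA1 KI library E exceeded WT library D, and the LFC was -0.24 (SE 0.087, adjusted p = 0.0717). It passed without WT library D (LFC -0.32, adjusted p = 0.0284) and with a trend in length and GC content removed (LFC -0.31, adjusted p = 0.0104, in a range up to 0.195 over 10 settings), and was -0.14 without WT library C (adjusted p = 0.260). Elavl2 (4210, 4563 and 4267 in WT and 4538, 4744 and 4137 in SCA1 KI cortex) and Elavl3 (13744, 12660 and 11016 in WT and 11517, 13499 and 12592 in SCA1 KI cortex) had overlapping ranges. Their LFCs were 0.04 (95% confidence interval -0.25 to 0.33) and 0.01 (-0.16 to 0.18). The ubiquitous paralogue Elavl1 (HuR) had 5385, 5468 and 4543 normalized counts in WT and 3359, 4609 and 4547 in SCA1 KI cortex, with an LFC of -0.31 that did not pass (adjusted p = 0.0721). It passed with the trend removed (LFC -0.27, adjusted p = 0.0286, in a range up to 0.181 over 10 settings), without WT library D (LFC -0.39, adjusted p = 0.0369) and without SCA1 KI library E (LFC -0.39, adjusted p = 0.0432), and was -0.16 without SCA1 KI library A (adjusted p = 0.214).

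In the cerebellum, Elavl2 had the LFC of the greatest size among the 10 genes. Its counts were 2764, 1736 and 1897 in WT and 1456, 1484 and 1688 in SCA1 KI mice. The SCA1 KI values were all under the WT values, but the WT libraries were far apart and the LFC of -0.44 did not pass the test (SE 0.14, adjusted p = 0.0877). It passed with DESeq2 (LFC -0.47, adjusted p = 0.0181), with the trend in length and GC content removed (LFC -0.51, adjusted p = 0.0439) and without WT library 4 (LFC -0.57, adjusted p = 0.0227), and was -0.24 without WT library 2 (adjusted p = 0.277). Over 10 settings the adjusted p ranged from 0.0181 to 0.151. In the same comparison the summed thalamus markers were at 5039 to 6091 normalized counts in WT and 3123 to 3220 in SCA1 KI cerebellum, with 4 of 5 lower, and the midbrain markers at 1259 to 1494 and 778 to 1048, with 3 of the 5 tested lower. Of the midbrain list the dopamine transporter gene Slc6a3 was under the filter. The oligodendrocyte sum was at 178046 to 266831 in WT and 152414 to 152494 in SCA1 KI cerebellum, with none of 6 called. The part of such cells and tissue in the Elavl2 difference was not tested. Elavl3 and Elavl4 overlapped between the genotypes in the cerebellum, with LFCs of -0.01 and 0.06.

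Among the Celf genes, Celf4, a regulator of neuronal excitability, was at 26761, 26783 and 26554 normalized counts in WT cortex and at 23787, 28407 and 27393 in SCA1 KI cortex. The SCA1 KI libraries lay on either side of the WT libraries (LFC -0.01, 95% confidence interval -0.16 to 0.13). In the cerebellum it was at 13324, 14283 and 14668 in WT and at 16384, 15562 and 16203 in SCA1 KI mice. All SCA1 KI libraries were above all WT libraries there, by an LFC of 0.19 that was under the 0.25 limit and did not pass the test (SE 0.067, adjusted p = 0.145). Celf5 was at 14290, 11616 and 10347 in WT cortex and at 9504, 11595 and 10309 in SCA1 KI cortex. These ranges overlapped, and the LFC of -0.20 had a 95% confidence interval of -0.43 to 0.03 (adjusted p = 0.236) and ran from -0.30 to -0.071 when a library was left out. In the cerebellum Celf5 was at 1364 to 1511 in WT and 1301 to 1468 in SCA1 KI mice (LFC -0.01, adjusted p = 0.971).

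Complete separation of the groups was common among all genes. In the cortex the SCA1 KI values were all under the WT values for 3 of the 10 genes (18.0% of all tested genes) and all over them for none (13.0%). In the cerebellum they were under for 1, Elavl2 (17.5%), and over for 1, Celf4 (14.3%).

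**Figure D3:**
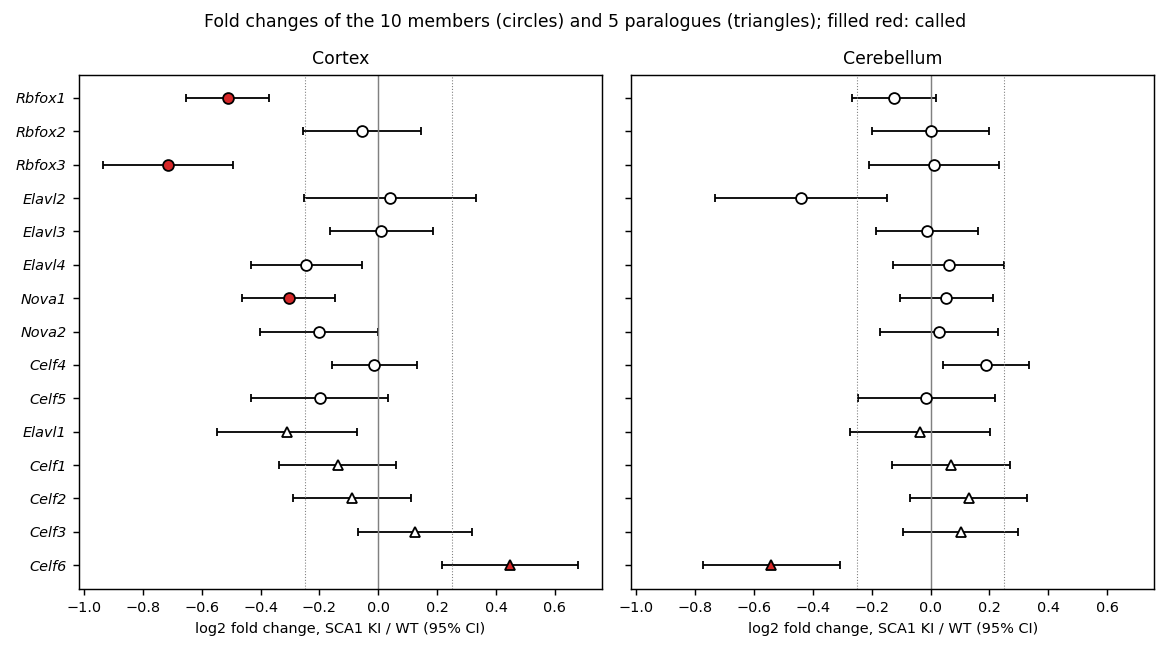
LFC of SCA1 KI against WT with its 95% confidence interval in the cortex (left) and the cerebellum (right) for the 10 genes (circles) and their 5 paralogues (triangles), filled red where called; dotted lines mark an LFC of 0.25 in either direction. Rbfox1, Rbfox3 and Nova1 are filled in the cortex and open in the cerebellum, and Celf6 lies to the right in the cortex (0.45) and to the left in the cerebellum (-0.54).

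The paralogues outside the 10 genes were Elavl1, Celf1, Celf2, Celf3 and Celf6, and Celf6 was the only one called. It was at 778, 771 and 693 normalized counts in WT cortex and at 1008, 1001 and 1046 in SCA1 KI cortex. All SCA1 KI libraries were above the WT libraries (LFC 0.45, SE 0.11, adjusted p = 0.0120). In the cerebellum the order was turned, with 373, 278 and 283 in WT and 213, 205 and 218 in SCA1 KI mice. The SCA1 KI libraries lay below the WT libraries (LFC -0.54, SE 0.11, adjusted p = 0.0104), a call that was lost when the cerebellum was fitted on its own (adjusted p = 0.0509, in a range from 1.73e-04 over 10 settings). The interaction of 0.99 (SE 0.15, adjusted p = 0.0019) passed the test. Celf6 was a minor part of the Celf sum, at 2.46% in WT cortex and 3.48% in SCA1 KI cortex. The LFCs of Celf1, Celf2 and Celf3, which act in splicing and mRNA decay, were -0.14, -0.09 and 0.12 in the cortex and 0.07, 0.13 and 0.10 in the cerebellum, and none passed the test.

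In WT mice, 7 of the 10 genes differed between the cortex and the cerebellum. Celf5 was higher in the cortex by an LFC of 3.07, Nova2 by 1.14, Elavl2 by 1.06, Celf4 by 0.92, Rbfox1 by 0.68 and Rbfox3 by 0.34. Nova1 was lower in the cortex (LFC -0.50). Of all tested genes 31.0% were called higher and 30.7% lower in the cortex, against 6 and 1 of the 10. Elavl3 was lower in WT cortex (LFC -0.22, adjusted p = 0.0303) by less than the limit, which it passed without WT cortex library B (LFC -0.29, adjusted p = 0.0074), and Rbfox2 (LFC -0.01) and Elavl4 (LFC -0.11) did not pass. The Rbfox3 difference fell to 0.19, under the limit, without WT cerebellum library 2 and to 0.23 with the trend in length and GC content removed.

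Per kb of exonic length, Rbfox1 was the most abundant of the 10 in WT cortex, at 4769 ± 195 normalized counts (SD, n = 3). It was above 98.4% of the 14639 tested genes that had a length. Celf4 (3111 ± 15) and Rbfox3 (2746 ± 116) followed, each apart from its neighbours. Celf5 (1812 ± 302), Elavl3 (1810 ± 199) and Rbfox2 (1670 ± 204) overlapped, ahead of Elavl4 (1062 ± 139), Nova2 (769 ± 78), Elavl2 (523 ± 23) and Nova1 (396 ± 20). In WT cerebellum Rbfox1 was again first (2983 ± 251). Rbfox3 (2190 ± 365) and Elavl3 (2095 ± 62) came next with overlapping ranges, and Nova1 (560 ± 36) stood above Nova2 (347 ± 19). Celf5 had the lowest mean at 214 ± 12, with a range that overlapped that of Elavl2 (256 ± 66). In SCA1 KI cerebellum these 2 overlapped too, with Elavl2 at 186 ± 15 and Celf5 at 211 ± 14. In SCA1 KI cortex the ranges of Rbfox1 (3344 ± 141) and Celf4 (3091 ± 283) overlapped, and Rbfox3 (1673 ± 72) was among Elavl3, Rbfox2 and Celf5. The order of the highest genes depended on the length used. Per kb of the longest transcript, the means of Rbfox1 and Celf4 were 6855 and 6683 in WT cortex. They were 4806 and 6641 in SCA1 KI cortex. By that length Rbfox1 had the highest mean in WT cerebellum (4288), with Rbfox3 at 4044. In WT library 6 the order was turned, with Rbfox3 at 41.0% and Rbfox1 at 40.2% of the Rbfox sum. In SCA1 KI cerebellum Rbfox1 was at 3925, against 4038 for Rbfox3 and 4018 for Celf4. Rbfox3 was higher in the cortex than in the cerebellum in every WT library, whereas in SCA1 KI mice the cortex, at 9271 to 10097 normalized counts, lay below the cerebellum, at 12209 to 13689.

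**Figure D4:**
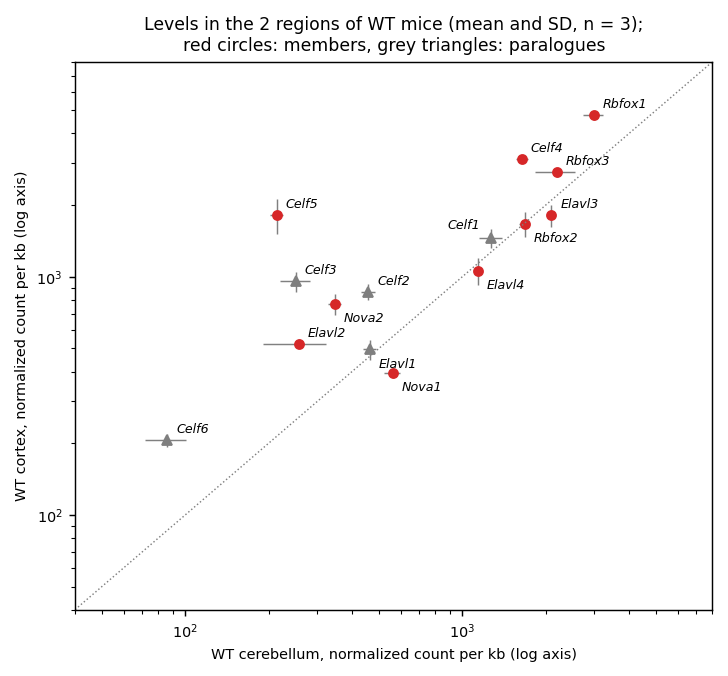
Mean normalized count per kb in WT cortex (vertical, log axis) against WT cerebellum (horizontal, log axis) with SD of 3 libraries; red circles are the 10 genes, grey triangles the 5 paralogues, and the dotted line marks equal levels. Celf5 lies far above the line (1812 against 214), Rbfox2 lies on it and Nova1 lies below it (396 against 560).

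The make-up of the Nova and Celf families differed between regions. Nova1 held 30.8 to 36.2% of the Nova sum in WT cortex, 28.2 to 35.0% in SCA1 KI cortex, 59.4 to 63.7% in WT cerebellum and 61.4 to 63.4% in SCA1 KI cerebellum. The genotypes overlapped within each region and the regions did not. Celf5 held 19.7 to 23.7% of the Celf sum in WT cortex and 5.09 to 5.75% in WT cerebellum. In the Elavl family Elavl3 held the largest share in all 4 groups, between 46.5% on average in WT cortex and 53.2% in SCA1 KI cerebellum.

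The 8 pan-neuronal markers summed to 360077 to 385499 normalized counts in WT cortex and 275716 to 294269 in SCA1 KI cortex, and 4 of the 8 were lower (Snap25, Syt1, Nefl and Nefm) and 1, Stmn2, was higher. Most of the difference in the sum lay in Snap25, with means of 155076 in WT and 99277 in SCA1 KI cortex, and Syt1, with 88185 and 68979. Map2 (LFC -0.22), Tubb3 (0.05) and Eno2 (0.00021) were not called. Per 1000 normalized counts of these markers, Rbfox3 was at 39.5 to 46.0 in WT and 33.6 to 34.3 in SCA1 KI cortex, and Rbfox1 at 54.1 to 60.0 and 50.7 to 52.1. Both were lower in SCA1 KI mice without overlap. On the same scale 3 genes were higher without overlap, Celf4 (69.5 to 74.3 in WT and 81.9 to 99.4 in SCA1 KI cortex), Elavl2 (11.5 to 11.8 and 15.0 to 16.1) and Elavl3 (29.8 to 38.2 and 39.6 to 45.9). The other 5 overlapped, Nova1 among them at 9.16 to 9.52 in WT and 8.91 to 11.3 in SCA1 KI cortex. The cortical LFCs of Celf4, Elavl2 and Elavl3 themselves were -0.01, 0.04 and 0.01. The marker sum that divides them was lower in SCA1 KI mice. The share of all tested genes without overlap on this scale is not given here. The ratio was chosen after the values were seen, rests on a sum in which Snap25 has the most counts, and has no test.

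**Figure D5:**
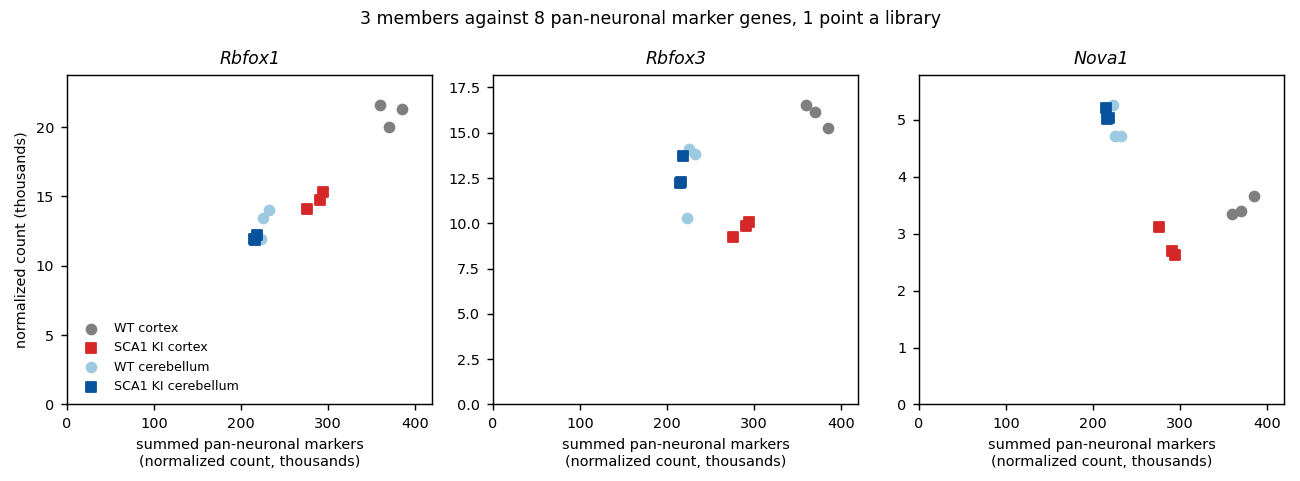
Normalized count of Rbfox1, Rbfox3 and Nova1 against the summed normalized count of 8 pan-neuronal markers, 1 point a library, both axes in units of 1000 and from 0. In the cortex the SCA1 KI libraries lie lower on both axes than the WT libraries. In the cerebellum the genotypes overlap in Rbfox1, Rbfox3 and Nova1, while the SCA1 KI libraries lie lower in the marker sum (214500 to 218028, against 223317 to 232096).

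Other marker lists moved in the SCA1 KI cortex too. Markers of cortical excitatory neurons summed to 82284 to 83593 in WT and 57109 to 67890 in SCA1 KI cortex, with 1 of 6 called lower, and astrocyte markers to 251286 to 259888 and 121142 to 183058, with 5 of 6 lower. Of the GABAergic list 2 of 6 were lower. Midbrain markers, from outside the cortex, summed to 173 to 294 in WT and 774 to 1492 in SCA1 KI cortex, with 2 of the 5 tested higher, and Gata3 of that list was at or under 3 reads in WT cortex. Of the Purkinje cell list 1 was higher and 3 of 6 lower, of the thalamus list 1 higher and 1 of 5 lower, and of the striatum list 1 of the 5 tested lower. The thalamus marker called higher, Shox2, was at or under 3 reads in WT cortex. None of 4 choroid plexus, 6 granule cell, 6 oligodendrocyte, 6 microglia or 5 endothelium markers was called. In WT cortex library B the oligodendrocyte sum was 135047, against 85294 in C and 79162 in D. Its striatum sum was 15076, against 7252 and 8598, and its choroid plexus sum 1660, against 192 and 213. The part of cell make-up and of dissection in the values of Rbfox1, Rbfox3 and Nova1 was not tested. In the cerebellum no pan-neuronal, granule cell, Purkinje cell, oligodendrocyte, endothelium, striatum or choroid plexus marker was called. There 2 GABAergic, 1 astrocyte and 1 microglia marker were lower and 1 cortical excitatory marker was higher. Vip, 1 of the 2 GABAergic markers, was at or under 3 reads in SCA1 KI cerebellum. Pan-neuronal markers summed to 223317 to 232096 in WT and 214500 to 218028 in SCA1 KI cerebellum, without overlap. GABAergic (60229 to 60783 and 50962 to 52626) and astrocyte sums (154463 to 167122 and 139832 to 144955) were also lower without overlap. The cortical excitatory sum was higher without overlap (16135 to 22663 and 23513 to 26148).

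Other splicing factors of the cortex were read from lists of the same kind, beside 4.82% of all tested genes called higher and 10.8% called lower there. Of 13 SR proteins, which mark exons for the spliceosome, 5 were higher in SCA1 KI cortex (Srsf1, Srsf2, Srsf5, Srsf6 and Srsf12) and none lower, with a median LFC of 0.19. Srsf5 rose from 5818 ± 122 to 7902 ± 633 normalized counts (SD, n = 3; LFC 0.44, adjusted p = 0.0011) and Srsf12 from 870 ± 71 to 1239 ± 88 (LFC 0.51, adjusted p = 0.0014). Of 21 hnRNP proteins, which often silence exons, 3 were higher (Hnrnpa2b1, Hnrnpdl and Hnrnph1) and none lower, with a median LFC of 0.11. Of 16 further regulators of splicing in neurons, Khdrbs2, a STAR-family splicing factor of neurons, was higher (LFC 0.40, adjusted p = 0.0292) and 3 were lower, Mbnl1 of the muscleblind family (LFC -0.31, adjusted p = 0.0168), Qk (LFC -0.37, adjusted p = 0.0275) and Raver2. Qk is also a regulator of glia. None of 26 core spliceosome genes was called by limma, edgeR, DESeq2 or voom, and 3 had an unadjusted p under 0.05. In the cerebellum none of these 76 genes was called by limma, edgeR or voom, and 15 had an unadjusted p under 0.05 in limma. DESeq2 called 2 of them there (Khdrbs3 and Srsf12), against 1150 of all tested genes. The share of all tested genes with an unadjusted p under 0.05 is not given here for either region. The list medians were 0.10 for SR proteins, 0.10 for hnRNP proteins, -0.0063 for the further regulators and 0.05 for the core spliceosome. None of the 13 SR, 21 hnRNP or 26 core spliceosome genes had an interaction with an adjusted p under 0.05 in limma. The adjusted p of the interaction was 0.197 for Srsf5 and 0.384 for Srsf12. Of the 16 further regulators 1 passed, Khdrbs2 (0.0334), against 8.15% of all tested genes.

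The genes whose pattern over the 12 libraries was most like that of each called gene, after the mean of the region was taken out, were named by Pearson's r as a description. For Rbfox3 these were Acap3 (r = 0.985), Pip5k1c (0.984) and Myh7b (0.983), whose cortical LFCs were -0.57, -0.53 and -0.94. For Rbfox1 they were an entry whose symbol had been turned into a date in the table (3-Sep, r = 0.993), Fam168b (0.979) and Camkk2 (0.975). For Nova1 they were Olfr1033 (0.939), Prss23 (0.935) and Jam2 (0.934). Between members, Rbfox1 and Rbfox3 had an r of 0.944, whereas Rbfox2 had 0.310 with Rbfox1 and 0.223 with Rbfox3. The points share libraries and depth, and the genotype difference is part of them.

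The 10 genes lie on 9 chromosomes and are long, with a median span of 149 kb against 24.5 kb for all genes with a match in the annotation, and a median exonic length of 7.52 kb against 4.36 kb. Rbfox1 (ENSMUSG00000008658.16, chr16:5885355-7411526, plus strand of GRCm38) spans 1526 kb, Rbfox3 (ENSMUSG00000025576.17, chr11:118489762-118911597, minus strand) 422 kb and Nova1 (ENSMUSG00000021047.7, chr12:46694517-46818929, minus strand) 124 kb. Celf4 spans 277 kb and Rbfox2 228 kb. A relation between span and LFC was not tested.

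Promoters of the 3 called genes are shown because these genes were lower together. The windows run from 250 bases before to 50 after a RefSeq start on GRCm38.p6, with CpG dinucleotides in capitals. They are chr11:118760992-118761291 on the minus strand for Rbfox3, chr16:5884543-5884842 on the plus strand for the first of 2 Rbfox1 windows, and chr12:46818718-46819017 on the minus strand for Nova1.
Rbfox3: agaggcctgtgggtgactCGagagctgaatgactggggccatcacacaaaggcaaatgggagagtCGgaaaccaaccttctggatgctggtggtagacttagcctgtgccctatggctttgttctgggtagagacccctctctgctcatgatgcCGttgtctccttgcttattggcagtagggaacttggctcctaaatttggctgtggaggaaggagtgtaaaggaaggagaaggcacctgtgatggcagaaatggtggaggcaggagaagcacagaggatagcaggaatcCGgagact
Rbfox1: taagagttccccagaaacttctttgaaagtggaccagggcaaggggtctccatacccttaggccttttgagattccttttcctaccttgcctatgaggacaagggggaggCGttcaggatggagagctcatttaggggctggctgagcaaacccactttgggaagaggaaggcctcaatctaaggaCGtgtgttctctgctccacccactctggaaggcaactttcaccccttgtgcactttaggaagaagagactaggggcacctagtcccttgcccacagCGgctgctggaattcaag
Nova1: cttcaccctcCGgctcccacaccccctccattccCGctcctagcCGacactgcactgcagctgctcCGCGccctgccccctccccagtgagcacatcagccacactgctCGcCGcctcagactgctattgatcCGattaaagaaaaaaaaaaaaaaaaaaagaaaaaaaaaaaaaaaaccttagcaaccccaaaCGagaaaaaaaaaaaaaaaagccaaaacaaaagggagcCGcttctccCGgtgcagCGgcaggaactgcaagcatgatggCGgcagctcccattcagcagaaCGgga
Rbfox3 had 4 CpGs in its window, Rbfox1 3 and Nova1 14, against a median of 7 over 32851 promoters and of 15 over the 21 windows of the members that had one. The Rbfox3 window lies within the span of the gene, whose upstream end on the minus strand is at 118911597. Its CpG count is thus that of an internal start. The motif of Capicua, the repressor that binds ataxin-1, was searched as TGAATGAA and TGAATGGA on both strands, which share their first 6 letters and cannot both match at the same place on a strand. TGAATGAA was in 1.30% and TGAATGGA in 1.21% of all promoters, and neither was in any of the 21 windows, which cover 8 of the 10 genes. Letters this rare are absent from nearly all promoters, so the search cannot show whether Capicua binds near these genes. Which of the starts is used in these tissues was not measured.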

How the data were processed

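Poly-A RNA of 3 libraries in each of 4 groups was sequenced with paired-end reads of 75 bases. The authors used STAR with mm10 for alignment, featureCounts for gene counts and DESeq2 for size factors, whose versions are not given in the sources used here, and the deposited signal values are the counts divided by those factors. They were whole multiples of what 1 read is worth in each library for 100% of values (tolerance 0.1 reads), so reads were recovered for edgeR, DESeq2 and limma voom as alternatives. The main fit was limma (version 3.58.1, R 4.3.3) with a trend on log2(normalized count + 1), 4 group means over all 12 libraries, and genes with a mean of at least 10. An LFC on this scale understates the change of low genes. Adjusted p is Benjamini-Hochberg over 15369 genes, two-sided. The test was also run on simulated data with known changes. Alternatives changed the pseudocount, the filter, the samples fitted, the centring, a trend in length and GC content, the tool (edgeR 4.0.16, DESeq2 1.42.0), the LFC limit, the gene length, and left out each library.

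The 10 genes, the lists and the markers were chosen with earlier results of these data known. Named were the members, their paralogues, Atxn1, from each list of other splicing factors up to 2 called genes per direction and region with the smallest p, and 3 genes like each called member. The other called genes of a list were named after their values were seen. Lengths came from GENCODE vM21 and promoters from RefSeq, by symbol, with 15009 of 15759 entries matched. Columns of the table are marked by library and genotype, and library marks were used as names. The table's unit was taken to be normalized counts, which set the main test to limma.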

Additional observations from a re-analysis of the deposited data

Results flagged for a closer look

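In the interaction term of the limma fit over the 12 libraries, the LFC differed between the cortex and the cerebellum for 2 of the 10 genes, Rbfox3 and Rbfox1, and for Celf6, a paralogue outside the 10, against 8.15% of all tested genes. For Rbfox3 the cortical LFC was below the cerebellar LFC by 0.73 (interaction -0.73, adjusted p = 0.0082), with SCA1 KI libraries below WT libraries in the cortex and overlapping ranges in the cerebellum. It passed in each of the 12 fits that left out a library (highest adjusted p = 0.0283). For Rbfox1 the interaction was -0.39 (adjusted p = 0.0211), and it was lost in 3 of those 12 fits. For Celf6 it was 0.99 (adjusted p = 0.0019), with every SCA1 KI library above the WT libraries in the cortex and below them in the cerebellum. It passed in each of the 12 fits (highest adjusted p = 0.0077). Region and data set cannot be told apart in these terms.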

How the results depend on the processing

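Rbfox1 and Rbfox3 were called lower in SCA1 KI cortex under all 10 alternative fits and all 12 fits without a library. With a limit of 1 on the absolute LFC, 0 of the 10 genes were called in the cortex and 3 between the regions of WT mice, instead of 3 and 7. In the cerebellum the count rose from 0 to 1 (Elavl2, lower) with the trend in length and GC content removed and to 1 with DESeq2. Leaving out a library gave 2 to 4 genes called in the cortex, 0 to 1 in the cerebellum (1 without WT library 4), 1 to 3 with an interaction (1 without SCA1 KI cerebellum library 1 or WT cortex library C) and 6 to 8 between regions.

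Small LFCs that were not called changed sign. With the trend removed, cortical values became 0.0091 for Rbfox2, 0.033 for Celf4 and 0.050 for Celf2, the Rbfox2 interaction 0.028, the Rbfox2 region difference 0.0040 and Nova1 in the cerebellum -0.015. Celf4 in the cortex was 0.0070 with edgeR and 0.0039 with voom, and Rbfox3 in the cerebellum -0.0031 with edgeR and -0.0023 with DESeq2. Centring on the library median gave 0.024 for Rbfox2, 0.012 for Elavl3 and 0.0098 for Celf5 in the cerebellum and 0.0047 for the Rbfox2 region difference. The cause was not tested. Without 1 library, cortical LFCs ranged from -0.16 to 0.036 for Rbfox2, -0.0036 to 0.095 for Elavl2, -0.077 to 0.083 for Elavl3, -0.065 to 0.063 for Celf4 and -0.17 to 0.027 for Celf2. Cerebellar LFCs ranged from -0.033 to 0.026 for Rbfox2, -0.14 to 0.090 for Rbfox3, -0.043 to 0.014 for Elavl3, -0.0081 to 0.070 for Nova2, -0.045 to 0.042 for Celf5 and -0.012 to 0.11 for Celf1. Interactions ranged from -0.16 to 0.037 for Rbfox2 and -0.064 to 0.095 for Elavl3, and the Rbfox2 region difference from -0.074 to 0.092.

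Over all tested genes, 2402 were called in the cortex and 323 at a limit of 1, and 824 and 312 in the cerebellum, where leaving out SCA1 KI library 1, 3 or 5 gave 399, 454 and 512. Interactions fell from 1253 to 783 and 833 without SCA1 KI cerebellum library 1 or 3, and 9482 region differences fell to 3620 at a limit of 1. No paired analysis was possible because the columns carry library marks and not the replicate numbers of the labels. Counts on genes do not show exon choice, and 3 libraries per group limit what small differences can be called.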
